A study of Drosophila melanogaster with 18 samples.

Results

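The genes described here are 10 regulators of heterochromatin and of the fourth chromosome in *Drosophila melanogaster*, listed by name as genes through which effects of the Y or of the fourth chromosome could act: HP1a (the Su(var)2-5 locus), HP1b, HP1c, Su(var)3-7, Su(var)3-9, egg, G9a, Pof, Hmr and Lhr. A probe set was taken as a member when the platform annotation gave it that gene and no other. Of the 10 genes, 7 had 1 such probe set each, among 11981 genes named by the array. The other 3, Su(var)3-9, egg and G9a, were named by no probe set here and were not analysed. The study asked how inheritance of the X chromosome from the father, for 1 generation or for many, changes males, and RNA was measured in whole bodies of males that had been adult for 4 days. All males derived from the LHm laboratory population and belonged to 3 treatments. MLX males came from populations kept for 50 generations with females that carry a compound double X (DX), so that the X passed from father to son, while some males from boxes in which the X could recombine in females were added back. CDX males were sons of a Control father and a DX mother, and thus had their father's X and a Y from their mother. Control males had the usual transmission, with the X from the mother and the Y from the father. Each treatment had 3 populations with 2 arrays each, which makes 6 arrays per treatment and 18 in all. DX mothers carry marker mutations, and maternal effects, the source of the Y and the source of the X cannot be told apart between CDX and Control males. MLX males differ from Control males in the same ways and in their evolved X, which cannot be told apart either. By the paper, the Y of CDX males came through MLX populations and could have evolved there. The methods of the study give 8 males per array and the deposited labels 1 male, and a whole body joins testis, accessory gland, gut, muscle and fat body in 1 value.

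Heterochromatin is the compact chromatin around the centromeres, at the telomeres, on the Y and over most of the fourth chromosome of this fly. Enzymes such as Su(var)3-9, egg and G9a methylate lysine 9 of histone H3, proteins of the HP1 family bind the methylated histone, and further proteins join HP1. Genes of the fourth chromosome are active inside heterochromatin, and this chromosome has a coating protein of its own, named Pof for painting it. The Y holds few genes but much repeated DNA, to which heterochromatin proteins bind.

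The arrays were Affymetrix Drosophila Genome 2.0 chips, and all values are log2 expression after RMA, on which a difference of 0 means equal levels. No level of a probe set was set against that of another. Array medians lay between 6.94 and 7.06. Among 14 testis markers the array means spanned 9.80 to 10.10 in MLX, 9.77 to 10.00 in CDX and 9.79 to 9.98 in Control males, and all 14 were measured. The mean of the yolk and eggshell genes, which females make, was between 6.79 and 7.78 in 6 arrays and between 5.57 and 6.14 in the 12 others. The 6 were the MLX arrays 2-2 and 3-2, the CDX arrays 1-1, 2-1 and 3-1 and the Control array 2-1, where the first digit is the population and the second the array. Control transcripts of the chip had more signal at the 3' than at the 5' end, by a log2 difference of 1.193 to 1.503 in MLX, 1.36 to 1.58 in CDX and 1.39 to 1.62 in Control males. The 2 arrays of a population are of different males of that population, and the population was therefore taken as the unit that varies.

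No measured member passed the test of a difference between treatments. Among the 7 genes, the number at an adjusted p under 0.05 from limma was 0 in all 3 comparisons, CDX with Control, MLX with Control and MLX with CDX, and every adjusted p was 1.0. Over all 18769 transcripts tested the share that passed was 0% in each of these comparisons. The study, at a false discovery rate of 0.05, did report transcripts that differed between treatments. Why its result differs from the 0% here was not tested. Without adjustment, 0 of the 7 genes had a p under 0.05 in any of the 3 comparisons. Of all transcripts 2.98% had one in the comparison of CDX with Control, 4.19% in that of MLX with Control and 2.61% in that of MLX with CDX. Fits on population means, with arrays as independent samples, and with a mixed model per probe set also gave 0 genes at an unadjusted p under 0.05. The differences were small, and they lay on both sides of 0 except for MLX minus Control, where all 7 were above 0. They ran from -0.01 to 0.09 for CDX minus Control, from 0.01 to 0.05 for MLX minus Control and from -0.07 to 0.02 for MLX minus CDX.

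**Figure D1:**
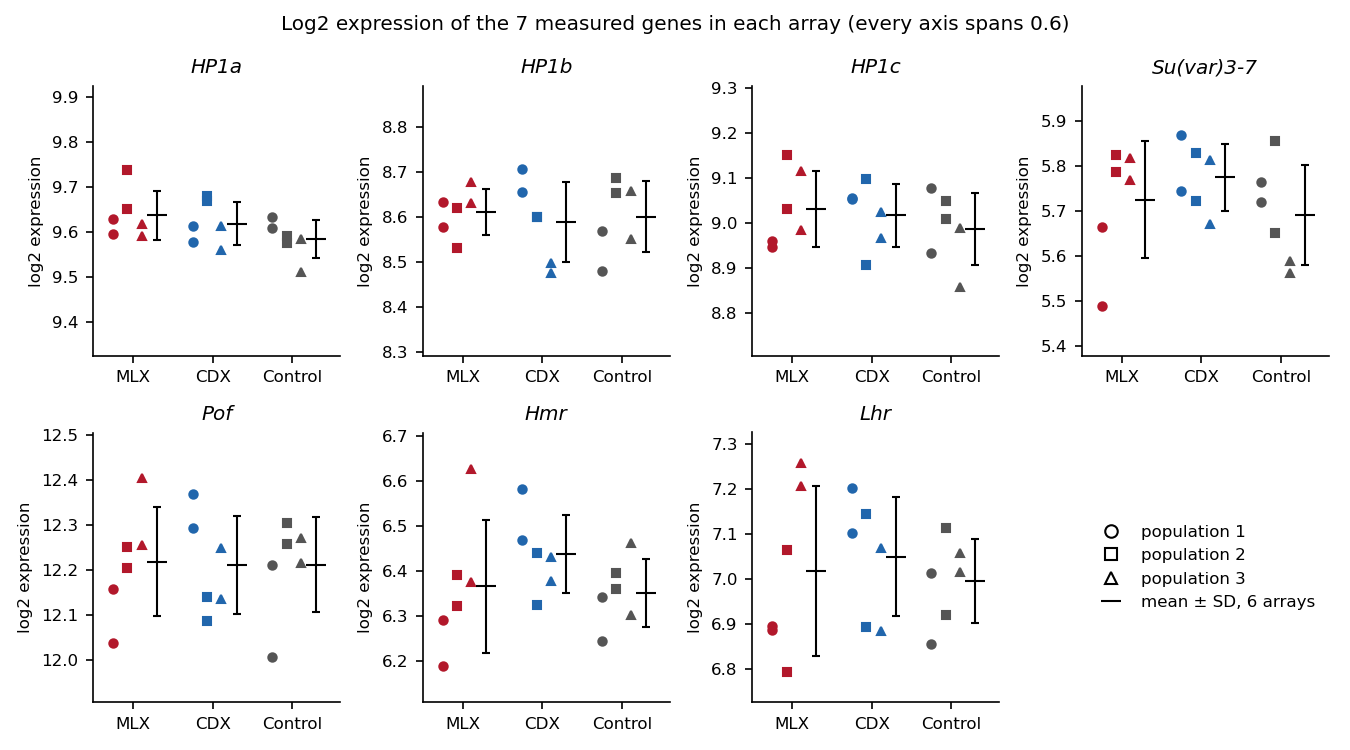
Log2 expression of the 7 measured genes in every array, by treatment (MLX, CDX, Control). Symbols are the 3 populations of a treatment and the bar is the mean ± SD of 6 arrays. The treatments overlap for every gene, and the vertical axis of each panel spans the same 0.6 log2 units.

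HP1a is the founding member of its family, the protein that binds methylated histone H3 and packs heterochromatin around centromeres and at telomeres. Its lowest, median and highest log2 values were 9.59, 9.62 and 9.74 in MLX males, 9.56, 9.61 and 9.68 in CDX males and 9.51, 9.59 and 9.63 in Control males. The ranges overlapped, and only 2 MLX and 2 CDX arrays lay above all 6 Control arrays. MLX exceeded Control by 0.05 (standard error 0.04, unadjusted p = 0.226, adjusted p = 1.0 from limma), the lowest p of the 7 genes in that comparison. The 95% interval of that difference corresponds to 0.976 to 1.10 times the Control level. HP1a was also the steadiest member, with an SD within treatments of 0.0482, and only 1.9% of all transcripts had a smaller one. The median SD of all transcripts was 0.118.

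HP1b, a relative of HP1a found in both heterochromatin and euchromatin, had a lowest, median and highest value of 8.53, 8.62 and 8.68 in MLX, 8.48, 8.60 and 8.71 in CDX and 8.48, 8.61 and 8.69 in Control males. Its 2 extreme populations belonged to the same treatment: the mean was 8.68 in CDX population 1 and 8.49 in CDX population 3. HP1c, a relative found mainly at active genes in euchromatin, had 8.95, 9.01 and 9.15 in MLX, 8.91, 9.04 and 9.10 in CDX and 8.86, 9.00 and 9.08 in Control males. The ranges overlapped between treatments for both genes, with 2 MLX arrays of HP1c above all Control arrays and 1 CDX array of HP1b above all Control arrays. Both varied little: 12.5% of all transcripts had a smaller SD within treatments than HP1b and 14.6% a smaller one than HP1c.

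Su(var)3-7 encodes a zinc finger protein that binds HP1a and is needed for silencing near heterochromatin. Its lowest, median and highest values were 5.49, 5.78 and 5.82 in MLX, 5.67, 5.78 and 5.87 in CDX and 5.56, 5.69 and 5.86 in Control males. CDX exceeded Control by 0.08 (standard error 0.07, unadjusted p = 0.23 from limma), with only 1 CDX array above all Control arrays. The 2 lowest population means were 5.58 in MLX population 1 and 5.58 in Control population 3, so that a low population occurred in both treatments.

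Pof encodes the RNA-binding protein that coats the fourth chromosome and raises the expression of its genes. Its probe set is of the type in which the probes may match more than 1 transcript, although the annotation names Pof alone. The lowest, median and highest values were 12.04, 12.23 and 12.40 in MLX males, 12.09, 12.19 and 12.37 in CDX males and 12.01, 12.24 and 12.30 in Control males. The treatment means were almost equal, at 12.22 ± 0.12 in MLX, 12.21 ± 0.11 in CDX and 12.21 ± 0.11 in Control males (SD, n = 6 arrays). CDX minus Control was 0.00 with a standard error of 0.07 (95% interval -0.14 to 0.14), and MLX minus Control was 0.01 with an interval from -0.14 to 0.15. In this fit the intervals span a Pof level between 0.905 and 1.11 times that of Control males. The fit uses the same correlation within populations for all transcripts. A mixed model for Pof alone gave a standard error of 0.0868 in place of 0.0689 for CDX minus Control, so that these intervals may be too narrow.

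Hmr (Hybrid male rescue) and Lhr (Lethal hybrid rescue) encode partners in 1 complex that sits at centromeric heterochromatin with HP1a, and both are known for the death of hybrid males between this species and *Drosophila simulans*. Hmr had a lowest, median and highest value of 6.19, 6.35 and 6.63 in MLX, 6.33, 6.44 and 6.58 in CDX and 6.24, 6.35 and 6.46 in Control males. Its population means were 6.52, 6.38 and 6.40 in CDX males and 6.29, 6.38 and 6.38 in Control males, the only case among the 7 genes in any comparison in which the population means did not overlap. By that count 1 of 7 members did not overlap between CDX and Control, where 8.25% of all transcripts did not. Between MLX and Control it was 0 of 7 against 8.51% of all transcripts, and between MLX and CDX 0 of 7 against 6.14%. The smallest gap between a CDX and a Control population was under the gap between the 2 arrays of either population, and the difference of 0.09 in Hmr had a standard error of 0.07 (unadjusted p = 0.221, adjusted p = 1.0 from limma).

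Lhr varied most. It had 6.79, 6.98 and 7.26 as lowest, median and highest value in MLX, 6.88, 7.08 and 7.20 in CDX and 6.86, 7.01 and 7.11 in Control males. Within MLX its population means were 6.89, 6.93 and 7.23, so that population 3 stood above the other two. Its SD within treatments was 0.144, larger than in 72.7% of all transcripts, whereas that of Pof (0.112), Hmr (0.108) and Su(var)3-7 (0.108) was near the median of all transcripts. CDX minus Control was 0.05 (95% interval -0.13 to 0.23), the widest interval of the 7 genes together with the other Lhr comparisons.

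**Figure D2:**
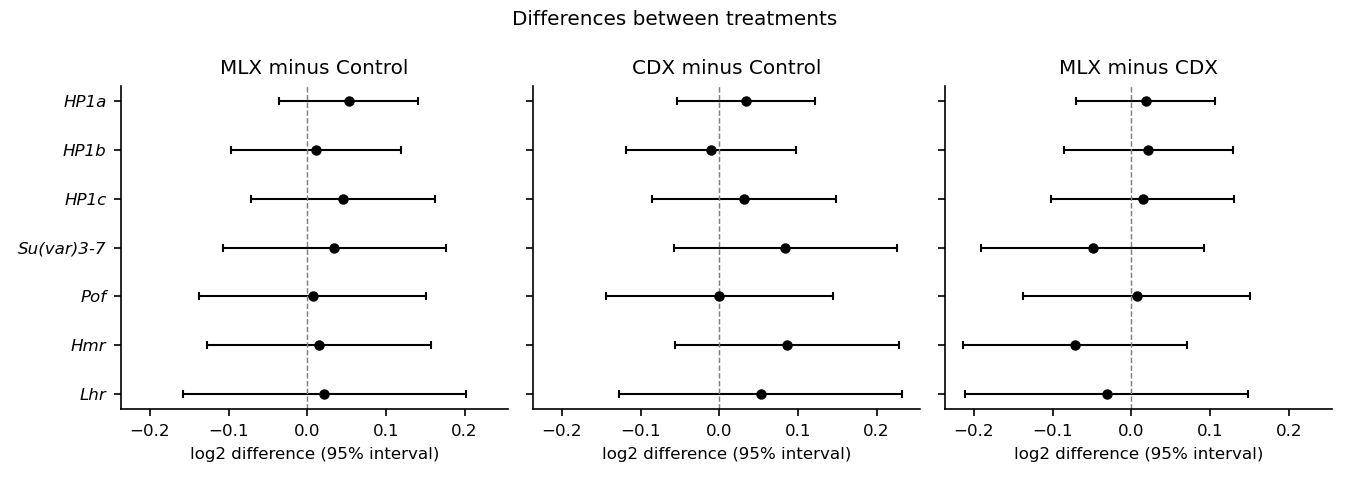
Log2 difference of each gene (points) with its 95% interval from limma (bars) for MLX minus Control, CDX minus Control and MLX minus CDX. All 21 intervals include 0, and those of HP1a are the narrowest.

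CDX was above Control in 6 of 7 genes (50.7% of all transcripts), MLX above Control in 7 of 7 (51.3%) and MLX above CDX in 4 of 7 (51%). The median difference of the 7 genes was 0.03, 0.02 and 0.01 in that order, against 0.00 over all transcripts in each comparison. CDX minus Control and MLX minus Control use the same Control arrays, so that their signs are not separate observations. The 7 genes are not separate observations either, as they were measured in the same arrays. Over the population means 17 of the 21 relations between members were above 0. The 95% intervals of the 7 genes together span 0.905 to 1.18 times the Control level in CDX males, 0.896 to 1.15 times it in MLX males, and 0.862 to 1.11 times the CDX level in MLX males. These joint bounds are set mainly by the wider intervals, such as those of Lhr, and the intervals of HP1a are narrower. The bounds hold for this fit and may be too narrow. The mixed model gave Lhr a standard error of 0.102 in place of 0.086 for CDX minus Control.

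Populations of the same treatment were compared against the spread between their 2 arrays. None of the 7 genes passed an adjusted p of 0.05 in the moderated F test of limma, which 1.35% of all transcripts did. Pof alone had an unadjusted p under 0.05 (F = 3.22, unadjusted p = 0.0352, adjusted p = 0.267), and 16.8% of all transcripts had one. Its population means were 12.10, 12.23 and 12.33 in MLX, 12.33, 12.11 and 12.19 in CDX and 12.11, 12.28 and 12.24 in Control males. Within each treatment the highest and lowest population of Pof lay farther apart than the treatment means did. The next lowest unadjusted p from that test was 0.0741 for Lhr, and HP1c had the highest at 0.563.

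Across populations several of these genes moved with each other or with testis markers. Over the 9 population means 63 relations were computed, of the 7 genes with each other and with the means of 6 gene lists, and 7 had an adjusted exact permutation p under 0.05 by Pearson's r and 3 by Spearman's rho. They were picked out after the values were seen. Pof followed the mean of the 14 testis markers, with r = 0.966 (exact permutation p = 0.00016 over 362880 pairings, adjusted p = 0.0101) and rho = 0.933 (exact permutation p = 0.00075, adjusted p = 0.0236). Without the 2 populations farthest from the median of the testis mean, r was 0.964 (exact permutation p = 0.00238). The correlation of deviations from the treatment means was 0.966, since the relation lay between populations of the same treatment, of which there are only 3 each. Only 0.0587% of the other transcripts followed the testis mean as closely. All 14 testis markers were positively correlated with Pof, with single values between 0.227 and 0.958. All 14 were also positively correlated with HP1b, Hmr and Lhr, against 10 for Su(var)3-7, 8 for HP1c and 1 for HP1a. For HP1b the lowest single value was 0.05, and its r with the testis mean did not pass (0.535, adjusted p = 0.401, exact permutation). The 14 markers were measured in the same arrays and are not separate observations. In a whole body, more testis in a male and more RNA per testis cell cannot be told apart. The tissue that the Pof RNA came from was not measured. The array with the lowest testis mean, CDX 2-1 (9.768), had a median over all its values of 6.95. The array with the highest, MLX 3-1 (10.101), had a median of 7.038. What causes the relation was not tested.

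**Figure D3:**
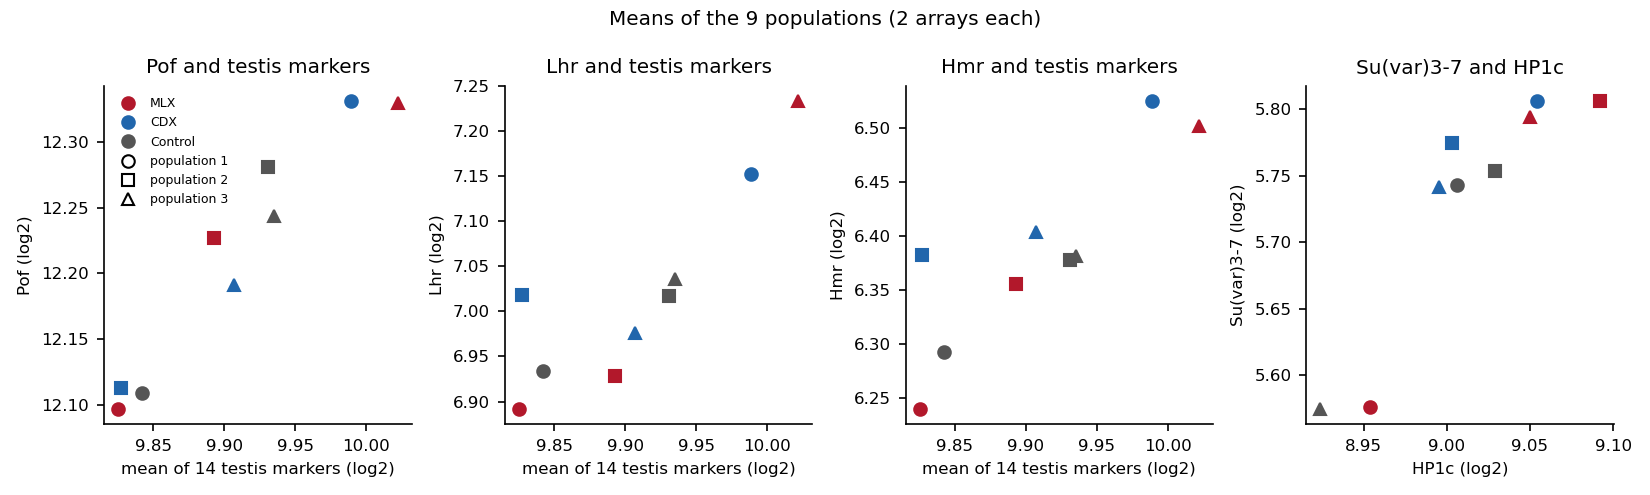
Means of the 9 populations (colour, treatment; symbol, population number; 2 arrays each) for Pof, Lhr and Hmr against the mean of the 14 testis markers and for Su(var)3-7 against HP1c, all in log2 units. Pof was higher in populations with a higher testis mean (r = 0.966), and MLX population 3 and CDX population 1 have the highest Lhr and Hmr means.

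Lhr and Hmr were related to the testis mean less closely. For Lhr r was 0.865 (adjusted p = 0.0275, exact permutation) and rho 0.817 (adjusted p = 0.136), and for Hmr r was 0.864 (adjusted p = 0.0375, exact permutation) and rho 0.733 (adjusted p = 0.196). Without the 2 populations farthest from the median, r was 0.70 (exact permutation p = 0.072) for Lhr and 0.76 (exact permutation p = 0.051) for Hmr, and neither relation passed without these 2, which were MLX populations 1 and 3. Transcripts with an r at least as high made up 3.44% and 3.52% of the others. The partners Hmr and Lhr followed each other with r = 0.908 (adjusted p = 0.0241, exact permutation) and rho = 0.85 (adjusted p = 0.0957), and 0.133% of transcripts followed Lhr as closely. Without the 6 arrays high in yolk and eggshell genes, which leaves at least 1 array in every population, that r was 0.329 and no longer passed (adjusted p = 0.791, exact permutation), while that of Pof and the testis mean was 0.94 (adjusted p = 0.0066, exact permutation). In the same setting r with the testis mean was 0.807 for Lhr (adjusted p = 0.141, exact permutation) and 0.515 for Hmr (adjusted p = 0.465, exact permutation), and neither passed. Median centring of the arrays, whose medians differ slightly, also ended both of these calls.

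Pof also followed Hmr (r = 0.838, adjusted p = 0.0375, exact permutation; rho = 0.733, adjusted p = 0.196) and the mean of 7 Y-linked genes (r = 0.894, adjusted p = 0.0275, exact permutation; rho = 0.917, adjusted p = 0.0275). The relation with Hmr did not pass without the 2 populations farthest out (r = 0.712, exact permutation p = 0.0637) or without the 6 arrays high in yolk and eggshell genes (r = 0.646, adjusted p = 0.336, exact permutation). Y-linked genes such as kl-3 and kl-5 are sperm dynein genes expressed in the testis. Both had a low signal here, with Control means of 3.67 for kl-3 and 3.44 for kl-5, where the lowest value of all was 2.64. The relation of the Y-linked mean with Pof was 0.889 without the 2 populations farthest out (exact permutation p = 0.00833). It was 0.689 without the 6 arrays high in yolk and eggshell genes (adjusted p = 0.32, exact permutation).

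HP1c and Su(var)3-7 formed the other close pair, with r = 0.903 (adjusted p = 0.0109, exact permutation) and rho = 0.933 (adjusted p = 0.0236). Both were low in MLX population 1 and Control population 3, and without these 2 populations, the farthest from the median, r was 0.838 (exact permutation p = 0.0268). Only 0.0533% of transcripts followed Su(var)3-7 as closely as HP1c did. The yolk and eggshell mean moved with both genes, with r = 0.76 for HP1c (adjusted p = 0.0918, exact permutation; rho = 0.617) and 0.765 for Su(var)3-7 (adjusted p = 0.0804, exact permutation; rho = 0.733), and without the 6 arrays high in it r between the pair was 0.628 (adjusted p = 0.336, exact permutation). Its part in the relation was not tested further. HP1a had a negative r with Pof (-0.364), Hmr and Lhr, although none of these passed.

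**Figure D4:**
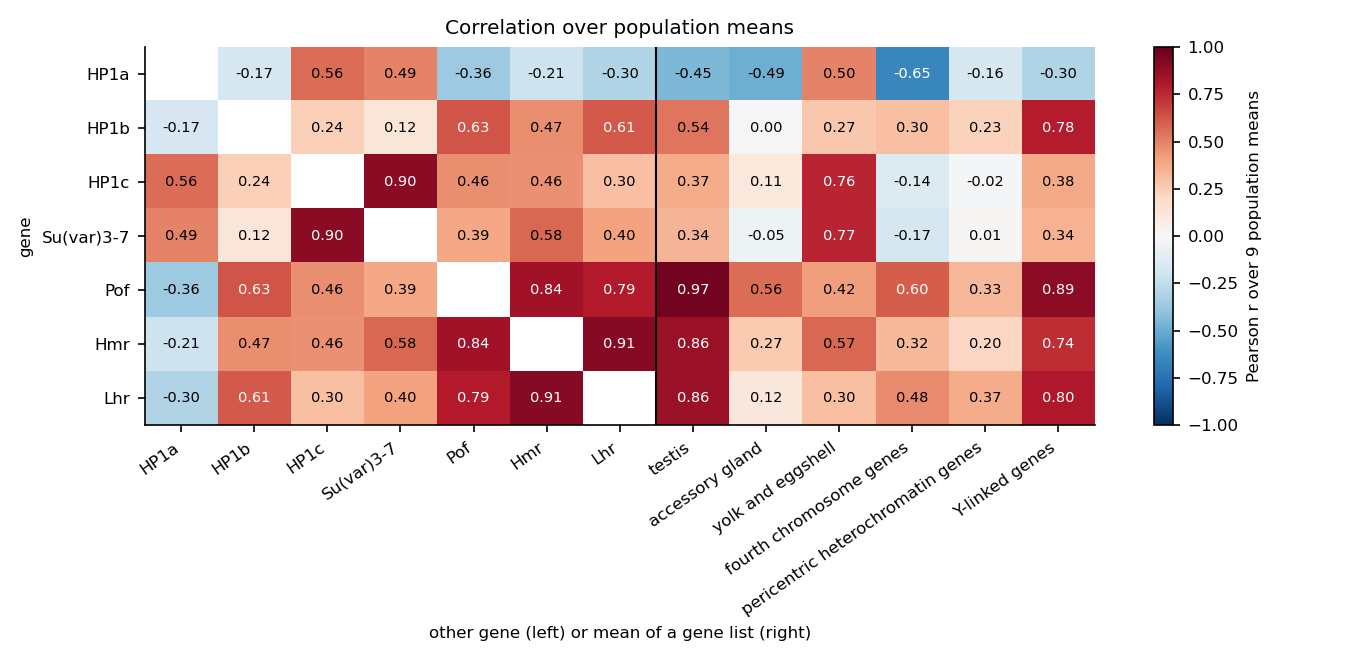
Pearson's r over the 9 population means between the 7 genes (left of the line) and between each gene and the mean of 6 gene lists (right of it). The highest values are those of Pof with the testis list (r = 0.966), of Hmr with Lhr (r = 0.908) and of HP1c with Su(var)3-7 (r = 0.903), and HP1a has negative values with Pof, Hmr and Lhr.

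With the testis mean as a covariate, a setting chosen after the values were seen, the standard error of the Pof differences was 0.0353 in place of 0.0689, and the Pof differences were -0.01 for CDX minus Control and -0.01 for MLX minus Control (adjusted p = 0.994 and 0.987 from limma). The difference of Pof between populations of the same treatment then had an unadjusted p of 0.828 from the moderated F test. Both changes go with the correlation of Pof with the testis mean given above, and are no separate result. For CDX minus Control the standard error also fell for HP1c, from 0.0558 to 0.045, and for HP1a, from 0.042 to 0.0356. Neither of these genes had a relation with the testis mean that passed (r = 0.369 and -0.45). For Lhr the standard error was 0.0594 in place of 0.086 for CDX minus Control, and the p between populations 0.619. HP1b, Su(var)3-7 and Hmr changed less in that fit, with a p between populations of 0.128, 0.109 and 0.181. For HP1c that p was 0.224 in place of 0.563, and for HP1a 0.589 in place of 0.422 (unadjusted, moderated F test).

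The transcripts most like each member over the 18 arrays, which include 2 arrays of each population, were found among all named genes. Pof had the closest ones, CG5050 (r = 0.966) and CG6652 (r = 0.964). HP1c was followed by CG12439 (r = 0.928) and by Dhc98D (r = 0.87), a dynein heavy chain, and Hmr by CG1698 (r = 0.866) and by phol (r = 0.806), a DNA-binding protein of the Polycomb group. For Lhr they were mrn and Lap1 (both r = 0.847), for HP1a CG14817 (r = 0.841) and Jhbp6 (r = 0.809), for HP1b CG34126 (r = 0.83) and Spn47C (r = 0.779), and for Su(var)3-7 Alg10 (r = 0.799) and shd (r = 0.768). By the rule, other members were left out of this search.

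The genes that work with the members were counted in lists, and none of them passed an adjusted p of 0.05 from limma in any comparison. Of 9 further HP1 and telomere capping genes 6 were measured, with 3 higher and 3 lower in CDX than in Control males, 4 and 2 in MLX against Control, and 4 and 2 in MLX against CDX, at medians of 0.009, 0.075 and 0.081. HP1D3csd, an HP1-like gene, had the widest difference there, at 5.56 ± 0.23 in MLX and 5.37 ± 0.13 in CDX males (SD, n = 6 arrays each; unadjusted p = 0.0643 from limma). Of 21 partners of HP1 and of egg 19 were measured, with 10 higher and 9 lower in CDX than in Control, 11 and 8 in MLX against Control, and 14 and 5 in MLX against CDX, at medians of 0.01, 0.03 and 0.03. Among them wde, the cofactor that egg needs for its enzyme activity, was at 8.09 ± 0.10 in MLX, 8.001 ± 0.135 in CDX and 8.10 ± 0.07 in Control males (SD, n = 6 arrays each). Its difference of -0.10 between CDX and Control had an unadjusted p of 0.148 from limma.

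Of 20 genes for other histone marks, which oppose or follow the methylation of lysine 9, 16 were measured, with 6 higher and 10 lower in CDX than in Control, 10 and 6 in MLX against Control, and 12 and 4 in MLX against CDX, at medians of -0.01, 0.03 and 0.04. The single one with an unadjusted p under 0.05 was gpp (grappa), the enzyme that methylates a lysine in the core of histone H3, at 8.47 ± 0.14 in MLX and 8.28 ± 0.09 in CDX males (unadjusted p = 0.0239, adjusted p = 1.0 from limma). That is 1 of 16 genes in 1 of 3 comparisons, where 2.61% of all transcripts had such a p. Of 16 satellite and centromere proteins 15 were measured, with 8 higher and 7 lower in CDX than in Control, 11 and 4 in MLX against Control and 8 and 7 in MLX against CDX, at medians of 0.01, 0.01 and 0.00.

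Genes that themselves lie in heterochromatin were counted in the same way. Of 21 genes of pericentric heterochromatin 15 were measured, with 6 higher and 9 lower in CDX than in Control, 6 and 9 in MLX against Control and 12 and 3 in MLX against CDX, at medians of -0.01, -0.02 and 0.03. FASN3, a fatty acid synthase, was the only one with an unadjusted p under 0.05, at 11.60 ± 0.11 in MLX and 11.78 ± 0.14 in Control males (unadjusted p = 0.0431, adjusted p = 1.0 from limma). That is 1 of 15 genes in 1 of 3 comparisons, where 4.19% of all transcripts had such a p. Of 12 Y-linked genes 7 were measured, with 3 higher and 4 lower in CDX than in Control, 3 and 4 in MLX against Control and 4 and 3 in MLX against CDX, at medians of -0.022, -0.002 and 0.020.

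The fourth chromosome, which Pof coats, has 80 protein-coding genes in the annotation, of which 65 were measured. Relative to Control males, CDX males had 14 of them higher and 51 lower, with a median difference of -0.06, against a median of 0.00 and 50.7% of transcripts higher over the whole array. In MLX males 21 were higher and 44 lower than in Control males (median -0.02), and 43 were higher and 22 lower than in CDX males (median 0.025). The 65 genes were measured in the same arrays, and both counts against Control use the same Control arrays. The genes and the counts are therefore not separate observations. None of the 65 passed after adjustment, and 4, 1 and 3 of them had an unadjusted p under 0.05 in CDX against Control, MLX against Control and MLX against CDX, where the shares over all transcripts were 2.98%, 4.19% and 2.61%. The means of the list by population were 8.35, 8.35 and 8.44 in MLX, 8.34, 8.33 and 8.38 in CDX and 8.35, 8.43 and 8.43 in Control males, so that the treatments overlapped, with Control population 1 among the CDX values. Leaving out 1 population at a time gave 47 to 55 lower genes for CDX against Control, with medians from -0.087 to -0.039, and 37 to 51 for MLX against Control, with medians from -0.053 without MLX population 3 to -0.007 without MLX population 1. For MLX against CDX it gave 33 to 49 higher genes, with medians up to 0.045 without MLX population 1, and an almost even split of 33 higher and 32 lower (median 0.001) without MLX population 3. Without the 6 arrays high in yolk and eggshell genes that split was 34 higher and 31 lower.

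**Figure D5:**
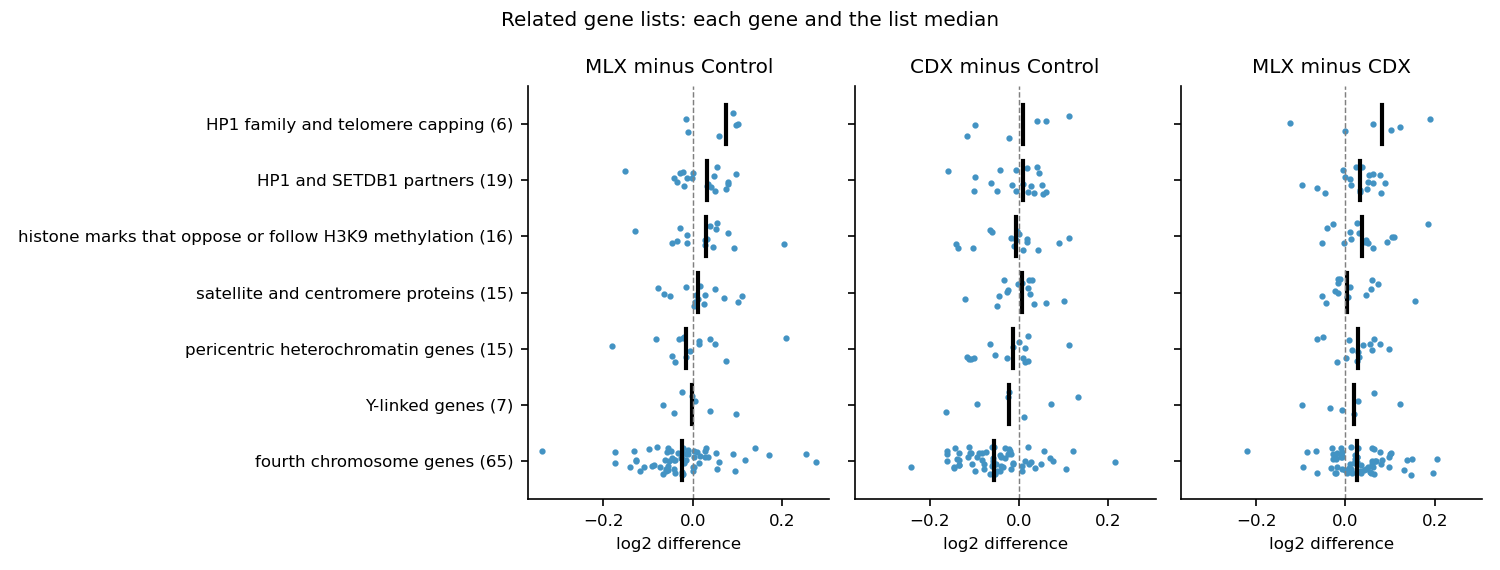
Log2 difference of each measured gene (points) of 7 lists related to the members, with the number of genes in brackets and the list median as a black bar, for MLX minus Control, CDX minus Control and MLX minus CDX. The fourth chromosome genes lie mostly below 0 in CDX minus Control (51 of 65), the other medians are between -0.02 and 0.08, and no gene passed the test.

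The fourth chromosome gene with the lowest unadjusted p was fd102C, a forkhead transcription factor, at 4.13 ± 0.11 in MLX, 4.35 ± 0.04 in CDX and 4.30 ± 0.09 in Control males (SD, n = 6 arrays each). It differed by -0.22 between MLX and CDX (unadjusted p = 0.00121) and by -0.17 between MLX and Control (unadjusted p = 0.00799), with an adjusted p of 1.0 from limma in both. Pof and the mean of the fourth chromosome genes had an r of 0.605 over the 9 populations (adjusted p = 0.317, exact permutation; rho = 0.417, adjusted p = 0.548), and r was 0.326 without the 2 populations farthest out. The most negative relation of that mean was with HP1a, at r = -0.651 (adjusted p = 0.275, exact permutation; rho = -0.55, adjusted p = 0.492). Neither passed the test.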

How the data were processed

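RNA from whole males was hybridised to Affymetrix GeneChip Drosophila Genome 2.0 arrays. The deposited log2 values were made by the authors with RMA (background correction, quantile normalization and summary per probe set) in the package affy of BioConductor 2.4, with no version of affy given. All 18952 probe sets of 18 arrays were read as deposited. The 183 Affymetrix controls were left out of the tests. Genes came from the platform annotation, updated through RefSeq (Release 6 plus ISO1 MT): 13646 probe sets named 1 gene, 402 several and 4721 none. No sequences or coordinates were used.

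Treatments were fitted in limma 3.58.1 under R 4.3.3. The 9 populations entered as random blocks (duplicateCorrelation, estimated correlation 0.192), followed by eBayes. Each comparison was adjusted by Benjamini-Hochberg over 18769 probe sets, at a threshold of 0.05. A moderated F test compared populations within treatments. The scripts were tested on simulated data. Members and lists were chosen with earlier results of these data known. In the lists each gene was represented by the probe set of highest mean, and the genes named were those at an unadjusted p under 0.01, or otherwise those among the 2 with the largest differences in a comparison. For each member the 2 genes most like it over the 18 arrays were named. Permutation tests were two-sided and exact. Mixed models used lmerTest 3.1.3, figures used matplotlib 3.10.9, and tables scipy 1.17.1, pandas 2.3.3 and numpy 2.4.6 under Python 3.11.15. Alternatives were population means, independent arrays, a mixed model, median centring, repeated quantile normalization, a signal filter, 1 probe set per gene, robust moderation, a block by population number, each population left out, the 6 arrays highest in yolk and eggshell genes left out, and covariates for that mean, for the 3' to 5' difference and, added after the values were seen, for the testis mean. Precision is limited by how many arrays there are. HP1a stands for the gene listed in the annotation under its suppressor of variegation symbol.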

Additional observations from a re-analysis of the deposited data

Results flagged for a closer look

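Among the 21 sets of 6 arrays (7 genes in 3 treatments), 1 held an array apart from the others, and chance gives about 1 in 20. In Control males the lowest value of Pof was 12.007, in array 1-1, and the next was 12.211, a gap of 0.688 of the whole range against a limit of 0.625. The testis mean of that array, 9.787, was also the lowest of the Control arrays.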

How the results depend on the processing

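The members tested had 0 calls between treatments under every alternative run, and the lowest adjusted p of a member was 0.797 (limma). Between populations the lowest was 0.117. The signal filter, which kept 9384 probe sets, tested only 4 of the 7 genes. Su(var)3-7, Hmr and Lhr had too low a signal to be kept, so their differences were not tested there. The relations over population means, some of which involve these genes, were not recomputed with that filter. Of 453 differences of members under alternatives, 416 kept their sign and 37 did not, 24 of these when 1 population was left out. No difference of a member under an alternative exceeded 0.14 in size, and among those that turned the largest was 0.086. The cause of the turns was not tested. With the population number as a replicate block, 0 members were called in each comparison, and no call changed. Deviations of populations with the same number had correlations from -0.137 to 0.384. Populations with unlike numbers were not compared in this way, so whether the numbers pair populations across treatments was not tested. The main fit treated the numbers as names only. The yolk and eggshell signal, the 3' to 5' difference and the number of populations limit small differences.

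Leaving out each population in turn, HP1b ranged from -0.056 to 0.041 for CDX minus Control, from -0.026 to 0.046 for MLX minus Control and from -0.03 to 0.067 for MLX minus CDX. Pof ranged from -0.059 to 0.05, from -0.049 to 0.067 and from -0.049 to 0.067 in the same order. For MLX minus Control the range was -0.023 to 0.109 for Su(var)3-7, -0.053 to 0.078 for Hmr and -0.086 to 0.084 for Lhr. For MLX minus CDX it was -0.011 to 0.046 for HP1a, -0.015 to 0.053 for HP1c, -0.09 to 0.025 for Su(var)3-7 and -0.139 to 0.032 for Lhr.

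Pof turned to -0.007 with median centring, -0.003 with quantile normalization repeated, -0.004 with the yolk and eggshell mean as a covariate and -0.006 with the testis mean as a covariate for CDX minus Control. With the testis mean it was -0.006 for MLX minus Control and -0.000453 for MLX minus CDX. Without the 6 arrays high in yolk and eggshell genes, Su(var)3-7 was -0.008 and Hmr -0.033 for MLX minus Control, and HP1a was -0.019 for MLX minus CDX. With the yolk and eggshell mean as a covariate Hmr was -0.001 for MLX minus Control. With the difference between 3' and 5' signal as a covariate HP1b was -0.004 for MLX minus Control, HP1a -0.004 and Lhr 0.018 for MLX minus CDX.

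The relations over population means were recomputed in 12 ways chosen after the values were seen. Pof and the testis mean passed in 11 of them, with r from 0.94 to 0.976, and not without MLX population 1 (adjusted p = 0.0508, exact permutation). HP1c and Su(var)3-7 passed in 8, Hmr and Lhr in 6, Pof and the Y-linked mean in 5, Lhr and the testis mean in 4, Pof and Hmr in 3, and Hmr and the testis mean in 2. Median centring and repeated quantile normalization ended the call of Lhr and the testis mean (adjusted p = 0.17 and 0.0718, exact permutation) and of Hmr and the testis mean (0.17 and 0.0718).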
